A study of Mus musculus with 6 samples.

Results

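Genes of alternative macrophage activation and of the interleukin-4 (IL-4) pathway were examined in macrophages (MPs) sorted from injured mouse muscle. The set was a list of 10 named genes, Il4ra, Il13ra1, Stat6, Egr2, Arg1, Retnla, Chil3, Mrc1, Clec10a and Mgl2. All 10 were found by symbol among the 13008 genes of the deposited expression table.

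IL-4 and IL-13 bind receptors that share the chain IL4Rα, encoded by Il4ra, which pairs either with the common gamma chain or with IL13Rα1. The receptors signal through Janus kinases to the transcription factor STAT6, and in mouse MPs STAT6 raises transcription of Arg1, Retnla, Chil3, Mrc1, Clec10a and Mgl2. These genes are widely used to mark the anti-inflammatory or reparative MPs that follow inflammatory MPs in regenerating muscle.

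RNA-seq was performed on F4/80+/Ly6C-Low MPs sorted on day 5 after cardiotoxin injury of hind limb muscles, in 3 Control and 3 Cripto KO samples. All mice were labelled as male C57BL/6J, 3 months old. The Cripto KO mice are labelled Tg:LysMCre::Cripto-/- and are called GFP-Cripto My-LOF where the study describes the RNA-seq. In them the LysMCre driver, active in the myeloid lineage, deletes floxed Cripto. Deletion is thus expected in MPs and not in other muscle cells. The labels give the Control genotype as wild type, whereas in the study the Control mice also carry LysMCre and the R26mTmG reporter. The reporter labels recombined cells with GFP. In the study the Cripto KO mice carry the reporter too, and GFP+ cells were sorted from both groups. Nothing in the labels says that each sample was 1 mouse, so p-values measure the spread between these samples. Tdgf1, the gene of Cripto, was not analysed here, so the deletion itself is unchecked in these samples. By genomic PCR at an earlier time after injury, the study found deletion incomplete, though higher in GFP+ cells than in all MPs. By ELISA on day 5, it found less Cripto protein in sorted GFP+ MPs of Cripto KO than of Control mice.

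A pair of Control samples stood apart. Control replicate 1, although labelled male, had an Xist signal of 171, while the remaining 5 samples ranged from 0.114 to 0.885. Control replicate 2 had 11066 for Lyz2, the gene into which LysMCre is inserted, while the remaining 5 ranged from 21.2 to 28.3. Values are a normalized signal, the gene's reads plus 0.5 scaled to 1000000 reads of a library size that the authors normalized. Recovered reads per sample numbered 12688968 to 14141773 for Control and 14633880 to 15659847 for Cripto KO. Of 8 general MP markers, 8 were measured and 0 were called, against 0.131% of all genes at an adjusted p under 0.05 (limma). Their summed signal was 8703 to 8847 in Control and 7970 to 9120 in Cripto KO samples.

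Promoter sequence is shown for 3 of the target genes, because STAT6 acts on its targets through a palindromic DNA site with spaced TTC and GAA ends. The windows are the bases before the RefSeq start site on GRCm38.p6, read 5′ to 3′ on the gene's strand, and end where the annotated gene model begins. Retnla and Chil3 are shown because each held a match, and Mgl2 as a target without one. Capitals mark TTCNNNNGAA, a STAT6-type site, or TTCNNNGAA, a site used by other STAT factors, each searched on both strands.
Retnla, plus strand, chr16:48842359-48842550: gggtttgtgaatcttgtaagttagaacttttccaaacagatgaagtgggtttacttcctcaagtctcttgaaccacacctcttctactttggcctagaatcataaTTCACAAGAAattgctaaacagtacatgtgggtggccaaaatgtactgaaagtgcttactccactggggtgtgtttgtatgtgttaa
Chil3, minus strand, chr3:106167565-106167814: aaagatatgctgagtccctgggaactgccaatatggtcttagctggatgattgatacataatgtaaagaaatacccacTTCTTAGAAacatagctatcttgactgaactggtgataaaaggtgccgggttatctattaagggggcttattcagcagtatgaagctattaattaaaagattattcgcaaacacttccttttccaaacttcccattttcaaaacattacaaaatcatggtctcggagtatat
Mgl2, plus strand, chr11:70130107-70130328: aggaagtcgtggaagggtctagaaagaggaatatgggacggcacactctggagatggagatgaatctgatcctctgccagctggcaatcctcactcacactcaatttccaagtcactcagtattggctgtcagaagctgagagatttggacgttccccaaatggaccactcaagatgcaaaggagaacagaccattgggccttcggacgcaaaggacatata

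The STAT6-type letters of Retnla lie at chr16:48842464-48842473, and the letters with the shorter spacing in Chil3 at chr3:106167728-106167736. RefSeq held a promoter entry for 8 of the 10 genes, with 12 start sites among them. Within 250 bases before any of its start sites, 1 of the 8 genes held TTCNNNNGAA and 1 held TTCNNNGAA. Of 32851 mouse promoters, 5.85% held the former and 7.02% the latter. These shares count each start site singly, not each gene. A match describes letters in the window and is not a site of binding.

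In Ly6C-Low MPs, none of the 10 genes differed between Control and Cripto KO at an adjusted p under 0.05 (limma), whereas 0.131% of all 13008 genes did (17 genes). At an unadjusted p under 0.05 it was 1 of 10, Stat6, against 8.59% of all genes. The receptor and transcription factor genes differed little, and all 4 had a higher Control mean (median log2(Control/Cripto KO) 0.13), without a call. For the 6 markers, 5 had a negative log2 fold change, and the median was -0.11. The median of all genes was 0.01. The markers fell into a stable gene, Mrc1, and 5 genes whose level differed more between samples of the same group than between the groups. In simulated data of this size, with the same dispersion for every gene, the test found 73.5% of genes when they changed 2-fold, but 2.5% at 1.5-fold. The members' own within-group SD of the log2 signal ran from 0.03 (Stat6) to 0.69 (Retnla). Its median was 0.12 over the 7730 genes with a mean signal of at least 10. Whether the dispersion used in the simulation matched that of these data was not tested. The shares of 73.5% and 2.5% therefore need not hold for any single member. They can be too low for steady genes such as Stat6 and Mrc1 (0.05), and too high for variable ones such as Retnla. The 95% confidence interval lay within a 2-fold change in either direction for 9 of the 10 genes and within a 1.5-fold change for 6, so differences of the smaller size were not excluded for the other 4.

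**Figure D1:**
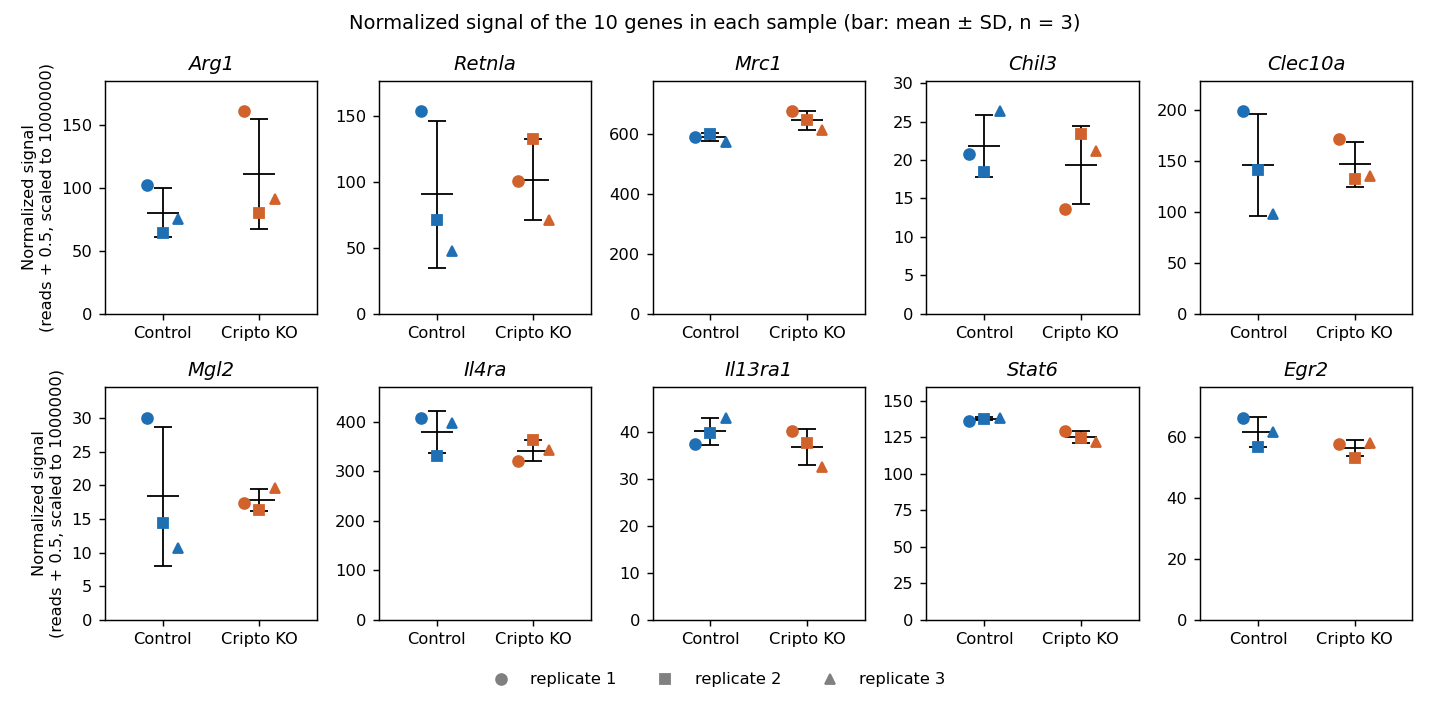
Normalized signal (reads plus 0.5, scaled to 1000000 reads) of each of the 10 genes in the 3 Control and 3 Cripto KO samples, with marker shape for the replicate number and bars for the mean ± SD (n = 3). Stat6 and Mrc1 have tight groups that do not overlap, whereas Control replicate 1 lies far above the other Control samples for Retnla, Clec10a and Mgl2.

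Among the receptor chains, Il4ra (ENSMUSG00000030748, chr7:125552120-125579474, plus strand) had a signal of 408.1, 329.9 and 397.2 in Control replicates 1 to 3 and of 319.6, 362.1 and 342.6 in Cripto KO replicates 1 to 3. Control replicate 2 lay among the Cripto KO samples, so the groups overlapped. Il4ra had a log2 fold change of 0.14 (standard error 0.09, 95% confidence interval -0.06 to 0.35, adjusted p = 0.711, limma). Without Control replicate 2, the sample with high Lyz2, it was 0.24 (unadjusted p = 0.015, adjusted p = 0.563, limma), and the adjusted p was 0.563 or higher in every alternative run.

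Il13ra1 (ENSMUSG00000017057, chrX:36112110-36171259, plus strand) encodes the chain of the receptor that binds both cytokines. Its signal was 37.6, 39.8 and 43.1 in Control against 40.2, 37.8 and 32.6 in Cripto KO samples. The groups overlapped, and the log2 fold change was 0.13 (standard error 0.10, 95% confidence interval -0.10 to 0.35, adjusted p = 0.763, limma).

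Stat6 (ENSMUSG00000002147, chr10:127642986-127660957, plus strand) had a signal of 136.5, 137.8 and 138.6 in Control against 129.5, 124.3 and 121.7 in Cripto KO samples. Every Control sample lay above every Cripto KO sample. In either direction, the groups did not overlap for 2 of the 10 genes, Stat6 and Mrc1, and for 14.5% of all genes. The Control mean was 138 ± 1.05 (SD, n = 3) and the Cripto KO mean 125 ± 3.98 (SD, n = 3), a 1.10-fold difference (95% confidence interval 1.00 to 1.21). Stat6 did not pass the limma threshold, with a log2 fold change of 0.14 (standard error 0.06), an unadjusted p of 0.047 and an adjusted p of 0.571. Its log2 fold change was 0.12 to 0.16 in the fits that each left out 1 sample, with an unadjusted p of 0.040 (without Cripto KO replicate 1) to 0.153 (without Cripto KO replicate 3), and 0.059 without Control replicate 1. With quantile normalization the log2 fold change was 0.09 (unadjusted p = 0.159, limma), and with edgeR the unadjusted p was 0.090.

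Egr2 (ENSMUSG00000037868, chr10:67535475-67542188, plus strand), a zinc finger transcription factor that IL-4 induces in MPs, had a signal of 66.5, 56.9 and 61.8 in Control against 57.8, 53.3 and 58.0 in Cripto KO samples. Control replicate 2 lay within the range of the Cripto KO samples. Its fold change was 0.13 on the log2 scale (standard error 0.08, 95% confidence interval -0.06 to 0.31, adjusted p = 0.708, limma).

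Of the targets, Arg1 (ENSMUSG00000019987, chr10:24915221-24927484, minus strand) encodes arginase 1, which turns arginine into ornithine and urea. Its signal was 102.2, 64.1 and 75.0 in Control against 160.9, 80.2 and 91.2 in Cripto KO samples. Cripto KO replicate 1 was the highest of the 6 samples, and the highest Control sample exceeded 2 of the 3 Cripto KO samples. Arg1 had the largest log2 fold change of the 10 genes in absolute value, -0.42 (standard error 0.25, 95% confidence interval -0.99 to 0.15, adjusted p = 0.690, limma). That corresponds to 1.34-fold more in Cripto KO MPs with an interval of 0.904 to 1.98. Without Cripto KO replicate 1 the log2 fold change was -0.12, and without Control replicate 1 it was -0.61 (unadjusted p = 0.036, adjusted p = 0.445, limma). Without Cripto KO replicate 2 it was -0.62 (unadjusted p = 0.043, adjusted p = 0.648, limma). A block by replicate number, although these numbers did not pair the samples, gave -0.42 (unadjusted p = 0.0035, adjusted p = 0.448, limma).

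The secreted protein genes among the targets are Retnla, which encodes RELMα (Fizz1), and Chil3, which encodes the chitinase-like protein Ym1. Retnla (ENSMUSG00000061100, chr16:48842551-48844461, plus strand) had a signal of 153.5, 71.1 and 47.4 in Control against 100.9, 132.4 and 71.0 in Cripto KO samples. The Control samples held both the highest and the lowest of the 6 values, which were 3.24-fold apart. On the log2 scale the difference was -0.29 (standard error 0.38, 95% confidence interval -1.14 to 0.56, adjusted p = 0.865, limma). It was -0.76 without Control replicate 1 (unadjusted p = 0.012, adjusted p = 0.331, limma) and 0.09 without Control replicate 3.

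Chil3 (ENSMUSG00000040809, chr3:106147554-106167564, minus strand) had a signal of 20.8, 18.4 and 26.3 in Control against 13.6, 23.3 and 21.1 in Cripto KO samples. Cripto KO replicate 1 was the lowest of all, and the other 2 Cripto KO samples lay inside the Control range. The log2 fold change was 0.20 (standard error 0.21, 95% confidence interval -0.27 to 0.66, adjusted p = 0.823, limma), and -0.04 without Cripto KO replicate 1. Chil3 shares 41.5% of its 31-base words with transcripts of 4 other genes (28.9% with Chil4), so its reads are uncertain.

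The lectin receptor genes are Mrc1, which encodes the mannose receptor CD206, and the neighbouring genes Clec10a and Mgl2, which encode galactose-type lectins. Mrc1 (ENSMUSG00000026712, chr2:14229392-14332057, plus strand) had a signal of 592.7, 602.4 and 575.1 in Control against 677.0, 646.8 and 616.0 in Cripto KO samples. All 3 Cripto KO samples lay above all 3 Control samples. The means were 590 ± 13.9 and 647 ± 30.5 (SD, n = 3 each), a 1.10-fold difference with an interval of 0.988 to 1.21. Mrc1 did not pass the limma threshold either, with a log2 fold change of -0.13 (standard error 0.07), an unadjusted p of 0.077 and an adjusted p of 0.640. Its log2 fold change was -0.17 to -0.10 in the fits that each left out 1 sample.

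Clec10a (ENSMUSG00000000318, chr11:70156197-70170834, plus strand) had a signal of 198.7, 141.3 and 98.1 in Control against 172.0, 132.1 and 135.5 in Cripto KO samples. The Control samples enclosed all Cripto KO samples. The log2 fold change was -0.05 (standard error 0.22, 95% confidence interval -0.55 to 0.44, adjusted p = 0.964, limma), and its sign turned to 0.20 without Control replicate 3 and to 0.07 without Cripto KO replicate 1.

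Mgl2 (ENSMUSG00000040950, chr11:70130329-70137550, plus strand) had a signal of 30.1, 14.3 and 10.7 in Control against 17.4, 16.3 and 19.5 in Cripto KO samples. Again the Control samples enclosed all Cripto KO samples. A log2 fold change of -0.09 resulted (standard error 0.31, 95% confidence interval -0.80 to 0.62, adjusted p = 0.960, limma). Without Control replicate 1 it was -0.52 (unadjusted p = 0.0092, adjusted p = 0.311, limma), and without Control replicate 3 it was 0.23. Mgl2 shares 19.3% of its 31-base words with Clec10a, and Clec10a 13.7% with Mgl2, so part of their reads could be split between them.

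Leaving out Control replicate 1, the sample with Xist reads, thus moved 3 genes, Arg1, Retnla and Mgl2, to an unadjusted p under 0.05 with a higher Cripto KO mean, while 10.5% of all genes had such a p in either direction in that fit. None of the 10 was called in it, against 0.238% of all genes. Over all 17 alternatives, each member had an adjusted p above the threshold, the lowest being 0.311 for Mgl2 without Control replicate 1.

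**Figure D2:**
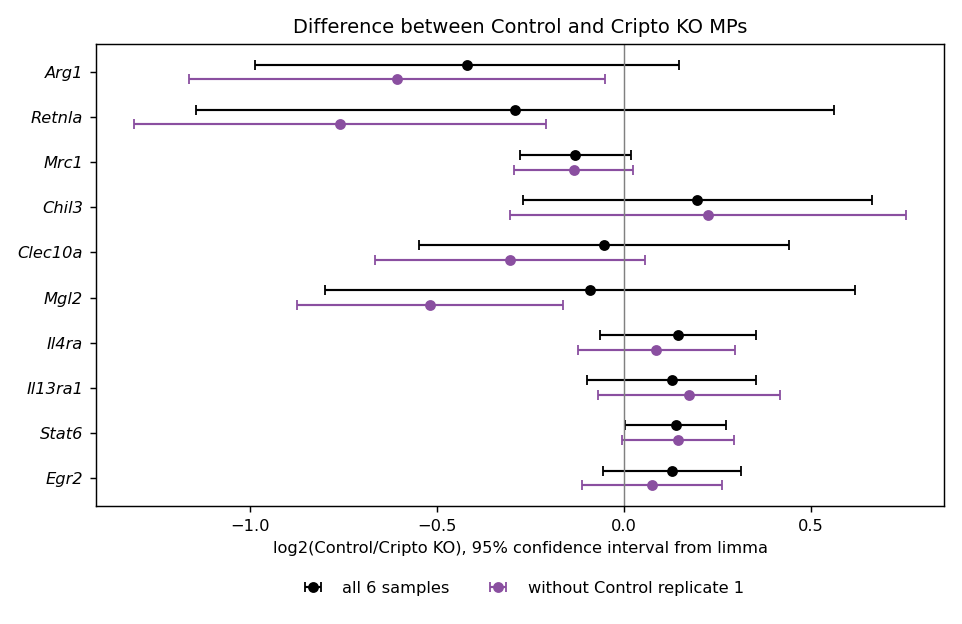
log2(Control/Cripto KO) of each gene with its 95% confidence interval from limma, for all 6 samples (black) and without Control replicate 1 (purple). With all 6 samples only the interval of Stat6 excludes 0, and without that replicate those of Arg1, Retnla and Mgl2 do, all without passing the adjusted threshold.

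Compared per kilobase of exon, the members covered a wide range of levels. Retnla had the highest level (160 normalized reads per kilobase, range over the samples 79.1 to 256), followed by Mrc1 (97.1, 90.3 to 106), Il4ra (60.0, 53.3 to 68.0), Clec10a (50.4, 33.8 to 68.5), Arg1 (42.9, 28.8 to 72.2) and Stat6 (29.9, 27.6 to 31.5). Egr2 (17.4, 15.7 to 19.6), Chil3 (12.6, 8.35 to 16.1), Il13ra1 (10.4, 8.79 to 11.6) and Mgl2 (8.62, 5.09 to 14.4) were lower. Among neighbours in this order, the sample ranges were apart for Mrc1 against Il4ra and for Stat6 against Egr2, and overlapped for all others. The lowest count of any member in any sample was 130 reads.

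The members split by how much they differed between samples of the same group. The within-group SD of the log2 signal was above the 95th percentile for 5 of the 10 genes, among 7730 genes with a mean signal of at least 10 (5.01% of which lay above it by definition). These were Retnla (99.5th percentile), Mgl2 (99.1), Arg1 (98.6), Clec10a (98.1) and Chil3 (97.4), all of them target genes. The pathway genes Il4ra (59.8), Il13ra1 (56.9) and Egr2 (33.6) lay near the middle, and Mrc1 (7.57) and Stat6 (1.42) were among the steadiest. The coefficient of variation over the 6 samples was 42.3% for Retnla, 36.6% for Mgl2 and 36.2% for Arg1, against a median of 8.69% for those 7730 genes. Counting error, taken at each member's mean read count over the 6 samples, was at most 6.30% (Mgl2). It is larger in a sample with fewer reads than that mean. The number above the 95th percentile was 3 without Control replicate 3 and 3 without Cripto KO replicate 1, and 4 or 5 in the other fits.

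**Figure D3:**
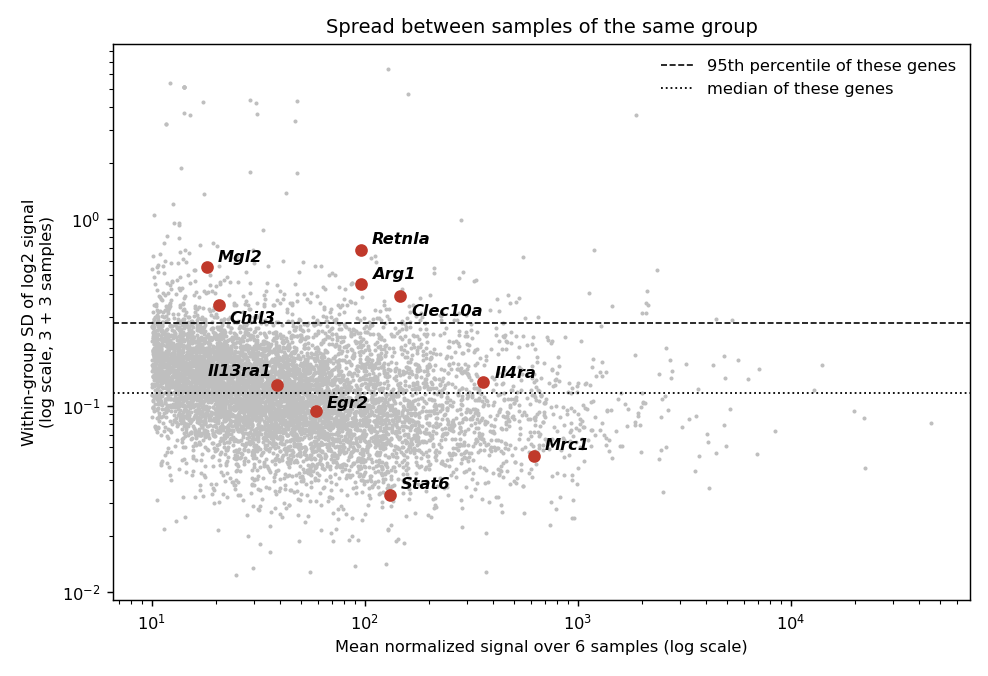
Within-group SD of the log2 signal against the mean signal over 6 samples (both log scales) for the 7730 genes with a mean of at least 10 (grey) and the 10 members (red). Retnla, Mgl2, Arg1, Clec10a and Chil3 lie above the 95th percentile of these genes (dashed), whereas Mrc1 and Stat6 lie under their median (dotted).

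The spread did not follow a single order of the samples. Control replicate 1 was the highest sample for 5 genes (Retnla, Clec10a, Mgl2, Il4ra and Egr2), Control replicate 3 for 3 (Chil3, Il13ra1 and Stat6) and Cripto KO replicate 1 for 2 (Arg1 and Mrc1). Control replicate 3 was also the lowest for 4 genes. Dendritic cells can express Clec10a and Mgl2 as well. Of 6 dendritic cell markers, 5 were measured and 0 were called, against 0.131% of all genes. Their summed signal was 10.7, 7.38 and 7.47 in Control replicates 1 to 3 and 8.29 to 9.06 in Cripto KO samples. Muscle fiber markers (5 of 6 measured) summed to 62.0 in Control replicate 1 and to 28.7 and 31.5 in the other Control samples. In Cripto KO samples they summed to 11.8 to 45.2. By log2 fold change 4 of the 5 were higher in Control (median 0.89), as were 52.6% of all genes. At an unadjusted p under 0.05 (limma) it was 3 of the 5, all higher in Control, against 8.59% of all genes. The groups did not overlap for 1 of the 5, against 14.5% of all genes. The list was led by Myh4, Ckm and Tnnt3 (adjusted p of 0.493 or higher, limma), and 0 were called, against 0.131% of all genes. The part of these cells in the spread was not tested. In such bulk samples fewer cells of a type and less RNA per cell cannot be told apart.

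Covariation was measured for the 45 pairs of members as the correlation of log2 signals over the 6 samples. The pairs did not move as 1 block: the median Pearson's r was 0.11 (0.00 over all gene pairs) and 25 pairs had a positive r. An r of at least 0.8 was reached by 1 pair, or 2.22%, against 3.45% of 71514820 pairs of genes, and an r of -0.8 or lower by 0 pairs against 3.27%. After adjustment over the 45 pairs by the Benjamini-Hochberg method no pair passed the threshold (exact permutation test, two-sided, smallest adjusted p = 0.613). At an unadjusted p under 0.05 it was 1 pair by Pearson's r and 0 by Spearman's rho. Without Control replicate 1 the median r was -0.21, with 4 pairs at 0.8 or higher and 5 at -0.8 or lower. The share of all gene pairs was not computed without that sample. With fewer samples high values of r are more common, so these counts cannot be judged against 3.45% and 3.27%.

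The highest correlation was that of the lectin genes Clec10a and Mgl2 (r = 0.877, exact permutation p = 0.036, rho = 0.714, exact permutation p = 0.136, n = 6), which also share sequence. Retnla followed both, with r = 0.793 for Clec10a (exact permutation p = 0.054, rho = 0.657, exact permutation p = 0.175) and r = 0.789 for Mgl2 (exact permutation p = 0.058, rho = 0.600, exact permutation p = 0.242). In each of these 3 genes Control replicate 1 was the highest and Control replicate 3 the lowest of the 6 samples. With group means removed r stayed at 0.876, 0.801 and 0.794 for the 3 pairs. Without the 2 samples farthest from the median, Control replicates 1 and 3, r was 0.062, 0.053 and -0.049, so these relations rest on those 2 Control samples. Without Control replicate 1 alone it was 0.767, 0.655 and 0.635.

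Arg1 had r = 0.592 for Clec10a (exact permutation p = 0.210, rho = 0.600, exact permutation p = 0.242), r = 0.426 for Mgl2 (exact permutation p = 0.375, rho = 0.771, exact permutation p = 0.103) and r = 0.403 for Retnla (exact permutation p = 0.444, rho = 0.486, exact permutation p = 0.356). The rho of 0.771 was the highest of the 45 pairs. Without Control replicate 2 and Cripto KO replicate 1, the 2 samples farthest from the median of Arg1, r was 0.937, 0.971 and 0.614. Its highest r among the members was with Mrc1 (0.668, exact permutation p = 0.142, rho = 0.486, exact permutation p = 0.356), and this was -0.014 without the same 2 samples. On the receptor side, Il13ra1 and Stat6 had r = 0.752 (exact permutation p = 0.058, rho = 0.714, exact permutation p = 0.136), and 0.870 with group means removed. Without Control replicate 3 and Cripto KO replicate 3 it was 0.193. Mrc1 and Stat6, the genes whose groups did not overlap, had r = -0.611 (exact permutation p = 0.210, rho = -0.714, exact permutation p = 0.136). With group means removed the sign of this r turned, to 0.794. Il4ra went with Chil3 (r = 0.736, exact permutation p = 0.082, rho = 0.657, exact permutation p = 0.175), and this was 0.389 without Control replicate 3 and Cripto KO replicate 1.

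Chil3 had a negative r with each of the other 5 markers. It was -0.709 with Arg1 (exact permutation p = 0.125, rho = -0.429, exact permutation p = 0.419), -0.698 with Mrc1 (exact permutation p = 0.118, rho = -0.486, exact permutation p = 0.356) and -0.639 with Clec10a (exact permutation p = 0.169, rho = -0.829, exact permutation p = 0.058). Cripto KO replicate 1, where Chil3 was lowest, had the highest Arg1 and Mrc1. Without the 2 samples farthest from the median of the first gene of each pair these were -0.928, -0.720 and -0.162.

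**Figure D4:**
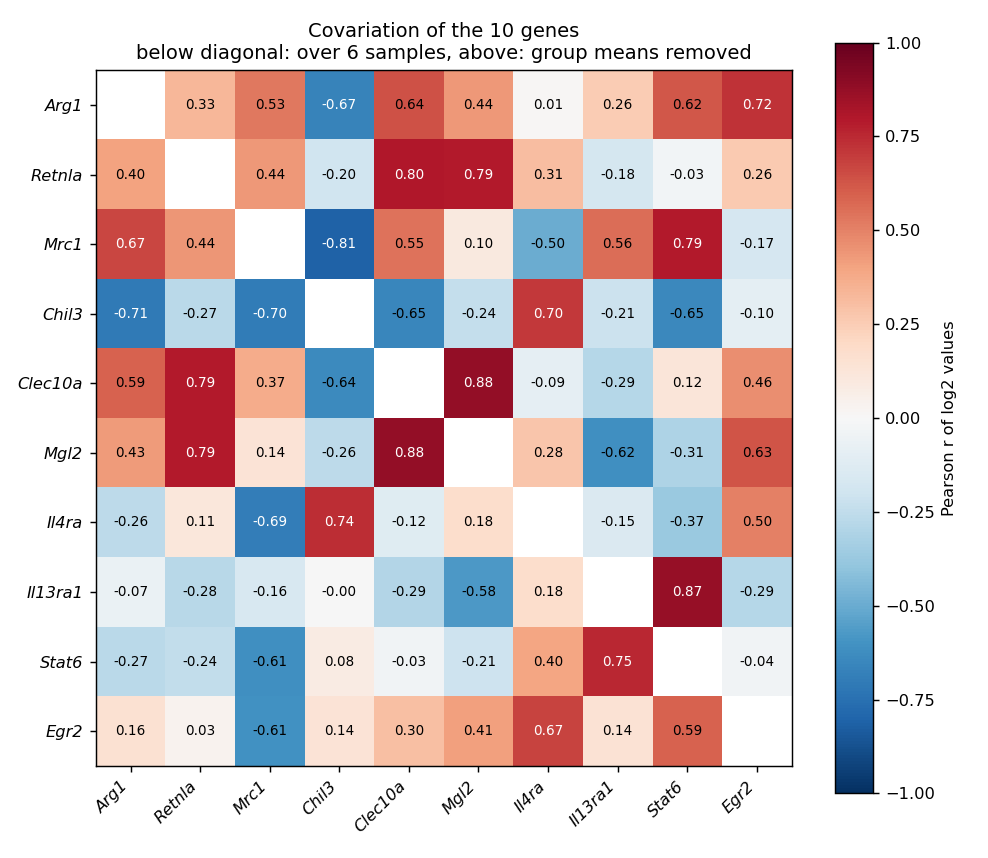
Pearson's r of the log2 signal for each of the 45 pairs of genes, over 6 samples (below the diagonal) and with group means removed (above it), from blue (-1) to red (1). Clec10a, Mgl2 and Retnla form the most correlated trio, and Chil3 is negatively correlated with Arg1, Mrc1 and Clec10a on both sides of the diagonal.

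Among 11959 genes with a mean signal of at least 1, the genes most like Arg1 over the 6 samples were Gm10575 (r = 0.989), Iqcc (0.983) and Asrgl1 (0.983), with 19 genes at an r of at least 0.95. Those most like Retnla were Insl3 (0.995), 3110062M04Rik (0.987) and Slc37a1 (0.986), with 23 such genes. For Mrc1 they were Myl4 (0.992), H19 (0.979) and Mthfd1 (0.978), with 21 such genes. Myl4 had a low signal, from 0.612 to 2.83. All these genes were picked as the highest of 11959 correlations over 6 samples. How many unrelated genes would reach such an r was not tested, so a relation to the member is not shown. No member of the set was among these leading genes of another member.

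Other genes of receptor signaling were read from a list of 17, of which 13 were measured. Il4 and Il13, the ligands, were not analysed here. Of the 13, 1 gene was called, Cish, against 0.131% of all genes. Cish, a SOCS family inhibitor of cytokine receptors that STAT5 is known to induce, was higher in Control. Its signal was 28.5, 14.3 and 10.1 in Control against 2.25, 2.58 and 2.45 in Cripto KO samples, without overlap. Cish thus differed by 2.73 on the log2 scale (standard error 0.33; adjusted p = 0.0235, limma). The call held in 9 of 17 alternatives, and the adjusted p was 0.0054 without Control replicate 1, 0.0575 without Control replicate 2, 0.0665 without Cripto KO replicate 1, 0.125 without Cripto KO replicate 2 and 0.0872 without Cripto KO replicate 3. Over all alternatives it was between 4.12e-16 (DESeq2) and 0.221 (limma without a variance trend). Its log2 fold change stayed between 2.31 and 3.06 in the fits that each left out 1 sample.

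At an unadjusted p under 0.05 it was 3 of the 13 genes, Cish, Jak1 and Irs2, against 8.59% of all genes. Jak1, a kinase of both receptor types, was at 0.15 on the log2 scale (adjusted p = 0.537, limma), and Irs2, an adaptor of IL4Rα, at 0.17 (adjusted p = 0.517, limma). Jak2, a kinase of cytokine receptors, differed most after Cish, by 0.25 (adjusted p = 0.637, limma), with overlapping groups. Il2rg, the common gamma chain, was at 0.01, Jak3, its kinase, at -0.16, and Socs1, an inhibitor of Janus kinases, at 0.07, each without a call. The median log2 fold change of the 13 genes was 0.09, and 10 were positive, against 52.6% of all genes.

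Of 10 transcription factors of alternative activation, 0 were called, against 0.131% of all genes, and the median log2 fold change was 0.02. At an unadjusted p under 0.05 (limma) it was 2 of the 10, 1 in each direction, against 8.59% of all genes. The groups did not overlap for 3, against 14.5% of all genes. Klf4, which cooperates with STAT6, had a signal of 513.8, 556.4 and 524.1 in Control against 433.4, 440.4 and 405.7 in Cripto KO samples, without overlap (0.32 on the log2 scale, standard error 0.07, adjusted p = 0.235, limma). Pparg, a nuclear receptor of lipid metabolism, was at 34.1, 33.9 and 30.6 in Control against 35.5, 41.7 and 37.5 in Cripto KO samples (-0.22, adjusted p = 0.559, limma). Klf4 thus had its higher values in Control and Pparg in Cripto KO samples, both below the threshold.

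Of 23 other genes that IL-4 induces in MPs, 17 were found and 15 had more than 3 reads in some sample. Of these 15, 0 were called, against 0.131% of all genes (median log2 fold change -0.01). At an unadjusted p under 0.05 (limma) it was 4 of the 15, 2 in each direction, against 8.59% of all genes. The groups did not overlap for 3, against 14.5% of all genes. Ccl17, a chemokine, and Retnlg, a paralog of Retnla with which it shares 5.45% of its words, had 0 reads in every sample. The 3 genes of the list with the smallest p were Ccl24, an eosinophil chemokine (-0.36, adjusted p = 0.438, limma), Clec7a, the β-glucan receptor Dectin-1 (0.27, adjusted p = 0.500, limma), and Tgm2, transglutaminase 2 (0.31, adjusted p = 0.543, limma).

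Of 13 markers of classical activation, the opposite inflammatory state, 0 were called, against 0.131% of all genes. By log2 fold change 12 had a higher Control value (median 0.24), as had 52.6% of all genes. At an unadjusted p under 0.05 (limma) it was 5 of the 13, all higher in Control, against 8.59% of all genes. The groups did not overlap for 5, against 14.5% of all genes. Ptgs2, the inducible cyclooxygenase, came nearest to the threshold, with a signal of 330.8, 317.4 and 323.5 in Control against 252.2, 243.3 and 246.0 in Cripto KO samples (0.39 on the log2 scale, standard error 0.06, adjusted p = 0.0571, limma). Cxcl9, a chemokine of the interferon response, followed (0.87, adjusted p = 0.285, limma). Immediate-early genes, which respond to tissue dissociation and to which the Egr family belongs, had a median of 0.02. Of these 13, 0 were called, against 0.131% of all genes. At an unadjusted p under 0.05 (limma) it was 2 of the 13, against 8.59% of all genes. These were Atf3 at 0.24 and Btg2 at -0.25 on the log2 scale.

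Fibroblast markers had higher sums in Cripto KO samples. All 8 had a lower Control value by log2 fold change (median -0.24), while 52.6% of all genes had a higher one. At an unadjusted p under 0.05 (limma) it was 6 of the 8, all higher in Cripto KO, against 8.59% of all genes. The groups did not overlap for 5 of the 8, against 14.5% of all genes. After adjustment 0 were called, against 0.131% of all genes. Their summed signal was 519 to 542 in Control and 610 to 666 in Cripto KO samples. The collagen genes Col3a1 (-0.31), Col1a1 (-0.25) and Col1a2 (-0.23) had the smallest p of the list, each with an adjusted p of 0.373 or higher (limma). The share of mitochondrial genes in the reads was 0.725% to 0.807% in Control and 1.01% to 1.08% in Cripto KO samples. The part of either, or of the muscle fiber markers above, in the small group differences of Stat6 and Mrc1 was not tested. Of 6 neutrophil markers 4 were measured and 0 were called, against 0.131% of all genes. They summed to 106 to 115 in Control and 101 to 111 in Cripto KO samples. Most of that sum was Csf3r, at 97.0 to 104 in Control samples, whereas S100a9 had 0 reads in every sample. The 2 measured of 6 eosinophil markers, a cell type that can also express Retnla, summed to 2.94 to 3.83 in Control and 2.90 to 3.81 in Cripto KO samples.

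**Figure D5:**
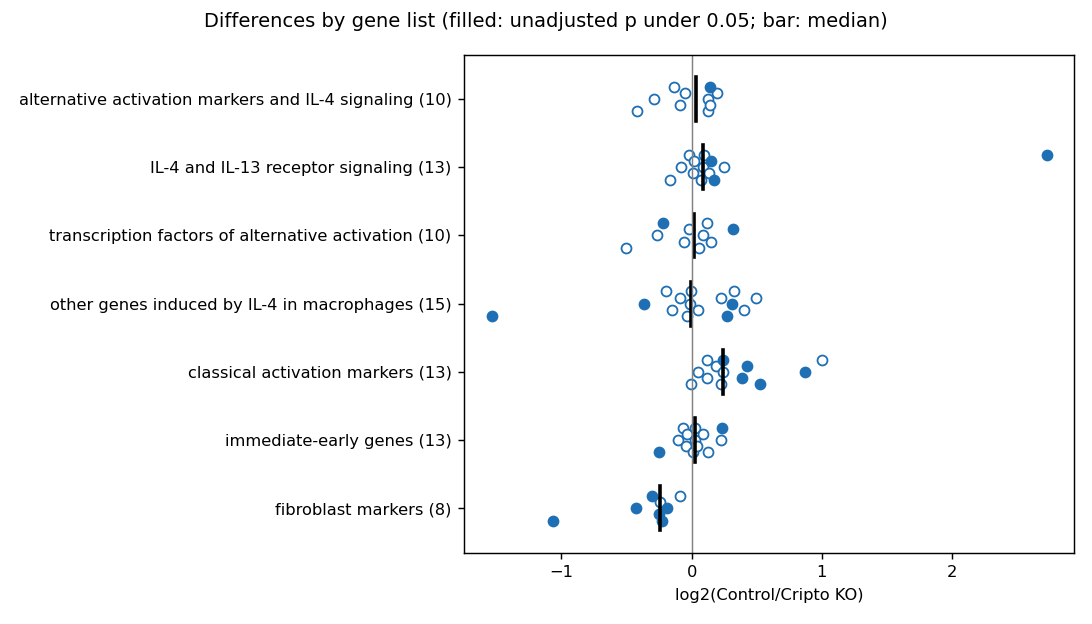
log2(Control/Cripto KO) of each measured gene by list, with the number of genes in parentheses, filled points for an unadjusted p under 0.05 and a bar at the median. The members and the other IL-4 lists scatter around 0 apart from Cish at 2.73 and Pdcd1lg2 (encoding PD-L2, at most 1.03 normalized signal in any sample) at -1.53, classical activation markers lie mostly to the right, and fibroblast markers to the left.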

How the data were processed

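RNA-seq of sorted Ly6C-Low MPs was analysed in 3 Control and 3 Cripto KO samples, grouped by their labels. The authors trimmed the reads with Cutadapt 1.7.1, used RSEM 1.2.20 to quantify transcripts of mouse GRCm38, release 91, and normalized them with limma. The deposited values are a normalized signal: reads, plus 0.5, scaled to 1000000 by a normalized library size. Dividing by the smallest value gave whole reads for 100.0% of 78048 values, within 0.01 read.

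Groups were compared with limma 3.58.1 in R 4.3.3 (lmFit, then trended eBayes) on the log2 signal, with no pseudocount since no value was 0, over 13008 genes, at an adjusted p of 0.05 (Benjamini-Hochberg), without a replicate block. The edgeR 4.0.16 quasi-likelihood test on the recovered reads called 17 genes and none of the 10 members. Alternatives were pseudocounts of 0.5 and 1, a mean of at least 1, median centring, quantile normalization, eBayes without a trend or robust, voom, edgeR, DESeq2 1.42.0, a replicate block, and each sample left out in turn. The members and lists were chosen with earlier results of these data known. Genes at 3 reads or fewer in every sample (a signal of 0.222 to 0.286 for 3 reads) were left out of list counts, a limit that covers counting error only. The test was first tried on simulated counts of 13008 genes with 200 changed and the same dispersion for all genes.

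Named are the members, the genes of each list with an unadjusted p under 0.05 (at most 3), preset genes of receptor signaling, the 3 genes most correlated with Arg1, Retnla and Mrc1, paralogs sharing 31-base words, Lyz2 and Xist. S100a9, Csf3r, Ccl17, Jak2 and Pdcd1lg2 were named after their values were seen. Some genes that the rule names are not reported here. Gene positions and exon lengths are from GENCODE mouse release 21 (12989 genes matched by ID). Correlations used exact permutation over 720 pairings, so that the smallest possible p is 0.00139. Python 3.11.15 (scipy 1.17.1, pandas 2.3.3, numpy 2.4.6; matplotlib 3.10.9 for plots) was used.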

Additional observations from a re-analysis of the deposited data

How the results depend on the processing

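None of the 10 members was called in any of the 17 alternatives. The number of genes called among all 13008, 17 as reported, was 6 with quantile normalization, 5 without a variance trend, 31 with robust eBayes, 9 with voom weights, 71 with DESeq2 and 5 to 31 when 1 sample was left out. The same replicate numbers did not pair the samples (correlations of deviations -0.21, -0.0052 and -2.46e-05), and a fit with a replicate block called 2 genes and 0 members. Both follow the numbers of the labels and the deposited table, and the study's supplement numbers the Control replicates in another order. The call of Cish, the only one among 13 genes of receptor signaling, was lost (0 called) with quantile normalization, without a variance trend, with voom weights and with the replicate block, and 0 or 1 gene was called when 1 sample was left out, a setting chosen after seeing the data. The transcription factors had 1 call with DESeq2, and classical activation markers 1 with robust eBayes and 2 with DESeq2. The log2 fold change reversed for Retnla (0.089 without Control replicate 3; -0.76 to 0.09 over the fits with 1 sample left out), Chil3 (-0.039 without Cripto KO replicate 1; -0.04 to 0.35), Clec10a (0.20 without Control replicate 3, 0.07 without Cripto KO replicate 1; -0.31 to 0.20) and Mgl2 (0.039 with edgeR, 0.037 with DESeq2, 0.01 without Control replicate 2, 0.23 without Control replicate 3; -0.52 to 0.23). Of 45 pairs, 1 reached r of 0.8 as reported, 3 with group means removed, 0 by Spearman's rho and 2 to 6 when 1 sample was left out. An r of -0.8 or lower was reached by 0 pairs as reported, 1 with group means removed, 1 by Spearman's rho and 0 to 5 when 1 sample was left out (5 without Control replicate 1, where the median r was -0.21). Shares of all gene pairs were computed only for Pearson's r as reported, so the other counts have no background. The alternatives for the within-group SD were also chosen after seeing the data. The cause of these shifts was not tested. With 3 samples in a group, the 95% confidence intervals of Retnla, Arg1, Mgl2 and Chil3 still hold changes of 1.5-fold.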
